A study of Mus musculus with 4 samples.

Results

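A set of 1315 peaks was described here, out of 40776 in the second library of mice with induced Musashi-1 (Msi1) and 240811 in the 4 libraries together. They were chosen by overlap: each shared at least 1 bp on the same strand with a peak of either wild-type library, and none shared a base with a peak of the first induced library. They are called members below. They made up 3.22% of the peaks of their library, a share that the overlap rule itself sets and that carries no test. Of all 2117 peaks of that library that met a wild-type peak, the members were 62.1% (95% Wilson interval 60.0 to 64.2%), and the other 802 also met a peak of the first induced library. Over the whole library, 38466 of 40776 peaks met no peak of the first induced library. That share is larger, so lack of such overlap was less common among peaks that met a wild-type peak.

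The assay was CLIP-seq for Msi1 in mouse intestinal epithelium: RNA fixed to the protein by ultraviolet light is precipitated with an antibody and sequenced, and a peak is a stretch where fragments pile up. The 2 wild-type libraries came from crypts of control mice given no doxycycline. The 2 TRE-Msi1 libraries came from total epithelium of TRE-Msi1 mice, which carry a doxycycline-responsive Msi1 transgene, after 24 h of doxycycline. Genotype, doxycycline and the cells taken therefore change together and cannot be told apart. The labels give neither the driver of the transgene's activator nor ages or strains, and they speak of 2 individual mice per group. All 4 libraries are Msi1 precipitates, so a peak is a called position and binding by Msi1 was not shown. Peaks are named by mm9 position, as no gene annotation or genome of that build was used here. No sequence is shown for the same reason.

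Msi1 is an RNA-binding protein with a pair of RNA recognition motifs that bind short single-stranded stretches around a UAG core, mostly in mRNA, where it acts on translation and stability. In the intestine it is found mainly in crypts, the pockets that house stem cells and Paneth cells, whereas total epithelium also holds the differentiated cells of the villi.

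The lists differ in form, which bears on every overlap. Wild-type replicates 1 and 2 list 4863 and 5578 peaks, and TRE-Msi1 replicates 1 and 2 list 189594 and 40776. Median widths are 74 and 75 bp in the wild-type lists, 40 bp in TRE-Msi1 replicate 1 and 75 bp in TRE-Msi1 replicate 2. Column 5 of each list, the authors' peak score of unstated unit, is 0 throughout wild-type replicate 1 and was used within a list alone. The read depth of each library is unknown here. Peaks of one list are not replicates of a condition, so shares below carry Wilson intervals for counting error only, and differences between kinds of peak are descriptions without a test.

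Both wild-type libraries contributed, and few members met both. Of the 1315 members, 678 (51.6%) met a peak of wild-type replicate 1 alone, 478 (36.3%) a peak of wild-type replicate 2 alone and 159 (12.1%) a peak of each. The 2 sources were not equally likely to give members. Peaks of TRE-Msi1 replicate 2 that met wild-type replicate 2 alone were members in 82.7% of 578 cases (79.4 to 85.6%). Those that met wild-type replicate 1 alone were members in 54.8% of 1237 cases (52.0 to 57.6%), and those that met both lists in 52.6% of 302 cases (47.0 to 58.2%). The whole wild-type lists differed in the same direction. TRE-Msi1 replicate 1 overlapped 36.4% of plus-strand and 50.1% of minus-strand peaks of wild-type replicate 1. In wild-type replicate 2 it overlapped 8.52% and 10.0%. The difference between sources is thus not particular to the members. The members comprised 1287 distinct intervals, since some intervals are listed more than once with different scores.

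Seen from the wild-type side, the members met 821 peaks of wild-type replicate 1 (16.9% of that list) and 633 of wild-type replicate 2 (11.3%). In wild-type replicate 2, where a score is given, the peaks they met had a median score of 7 and an interquartile range of 4 to 12, against a median of 6 over the whole list. Wild-type replicate 2 peaks met by neither induced list numbered 4450 and had a median score of 5. Those met by both induced lists and by no member numbered 206, with a median of 13. In wild-type replicate 1, which has no usable score, 14.7% of the peaks met by members stood in the first 10% of the rows, against 23.2% of the 548 met by both induced lists and by no member, and 3.95% of the 2025 met by neither. In both wild-type lists, the peaks behind the members therefore stood between those 2 groups. Peaks met by TRE-Msi1 replicate 1 alone did so too. Their median score was 8 in wild-type replicate 2 (258 peaks), and 9.57% of 1338 stood in the first 10% of wild-type replicate 1. The middle position is thus not particular to the members. Of the peaks met by members, 208 and 52 also overlapped TRE-Msi1 replicate 1. Whether row order in wild-type replicate 1 follows strength is not stated.

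The members ranged widely in strength, and the strongest lay in both wild-type lists. Their TRE-Msi1 replicate 2 score ran from 4, the lowest in the list, to 292, with a median of 9 and an interquartile range of 6 to 15. The median was 15 for members met by both wild-type lists, 9 for wild-type replicate 1 alone and 7 for wild-type replicate 2 alone. For comparison, it was 13 in the 802 peaks that met wild-type and TRE-Msi1 replicate 1 peaks, 9 in the 1508 that met TRE-Msi1 replicate 1 alone and 6 in the 37151 that met no other list. Members with the lowest score numbered 128 (9.73%), against 18.4% of all peaks of the library. Scores of at least 50 were held by 43 members (3.27%), against 0.390% of all its peaks.

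Whether a peak of TRE-Msi1 replicate 2 met a wild-type peak went with its score and, at like score, with TRE-Msi1 replicate 1. Among peaks without an overlap in TRE-Msi1 replicate 1, 1.85% of those scored 4 to 5 met a wild-type peak (1.64 to 2.09%), which are the members of that band. The share was 2.40% at scores of 6 to 8, 4.67% at 9 to 14, 12.8% at 15 to 29 and 38.0% (32.8 to 43.4%) at 30 or more. Among peaks that TRE-Msi1 replicate 1 also held, the shares in the same 5 bands were 20.4%, 25.2%, 34.5%, 44.6% and 64.4%. The intervals of the 2 kinds did not overlap in any of the 5 bands. In proportion, the 2 kinds were closest in the strongest band, where 123 of 324 peaks without a TRE-Msi1 replicate 1 overlap were members.

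**Figure D1:**
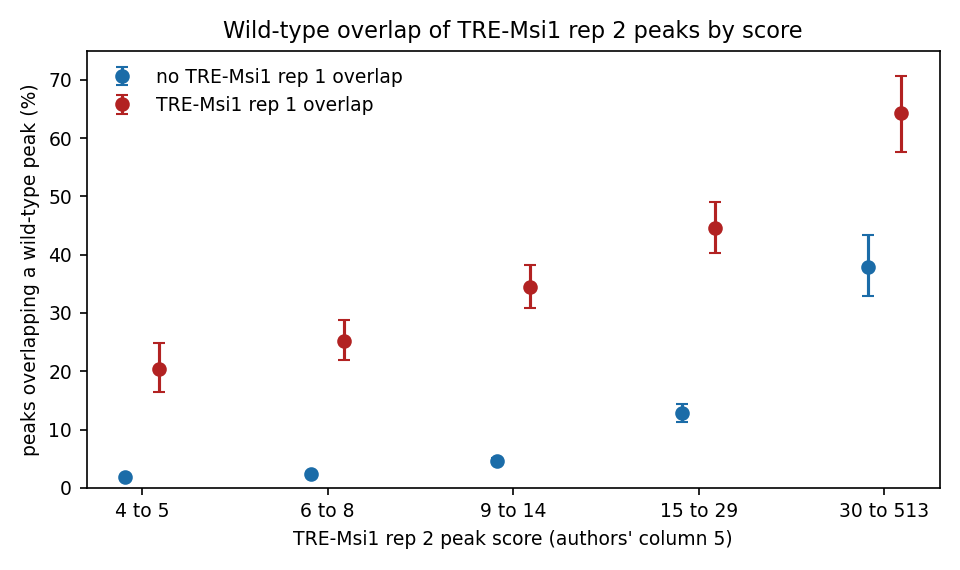
Share of TRE-Msi1 replicate 2 peaks that overlap a wild-type peak (vertical axis, percent) by the authors' score (horizontal axis, 5 bands), for peaks with and without an overlap in TRE-Msi1 replicate 1; points are shares and bars 95% Wilson intervals. Peaks without that overlap, whose wild-type hits are the members, rise from 1.85% to 38.0% and lie below the others in every band.

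Most members were not far from a TRE-Msi1 replicate 1 peak, although they overlapped none. The median number of bases between a member and the nearest such peak on its strand was 218 (interval from order statistics 129 to 317), with quartiles at 30 and 4368 bases and a maximum of 294 kb. A total of 587 members (44.6%) had one within 100 bp and 741 (56.3%, 53.7 to 59.0%) within 500 bp. Over all 38466 peaks of TRE-Msi1 replicate 2 without an overlap in TRE-Msi1 replicate 1, 14.4% had one within 500 bp. The 37151 that met no other list had a median distance of 5.69 kb, with 12.9% (12.5 to 13.2%) within 500 bp.

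The nearness came mainly from members met by wild-type replicate 1. Their median distance was 54 bases where wild-type replicate 1 alone met them (47 to 64) and 57 where both lists did (35 to 84), with 72.1% (68.6 to 75.4%) and 73.6% (66.2 to 79.8%) within 500 bp. Members met by wild-type replicate 2 alone lay a median of 3.31 kb away (2505 to 4837 bases), with 28.2% (24.4 to 32.4%) within 500 bp. The value for all members thus depends on the wild-type library used. The median was 1794 bases without wild-type replicate 1 and 54 without wild-type replicate 2. The whole wild-type lists, which include the peaks that members met, differed in the same direction. A TRE-Msi1 replicate 1 peak was centred within 200 bp of 3279 of 4863 wild-type replicate 1 peaks and 973 of 5578 wild-type replicate 2 peaks. Of these, 1185 and 457 did not overlap TRE-Msi1 replicate 1. The difference in nearness between sources is thus not particular to the members.

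**Figure D2:**
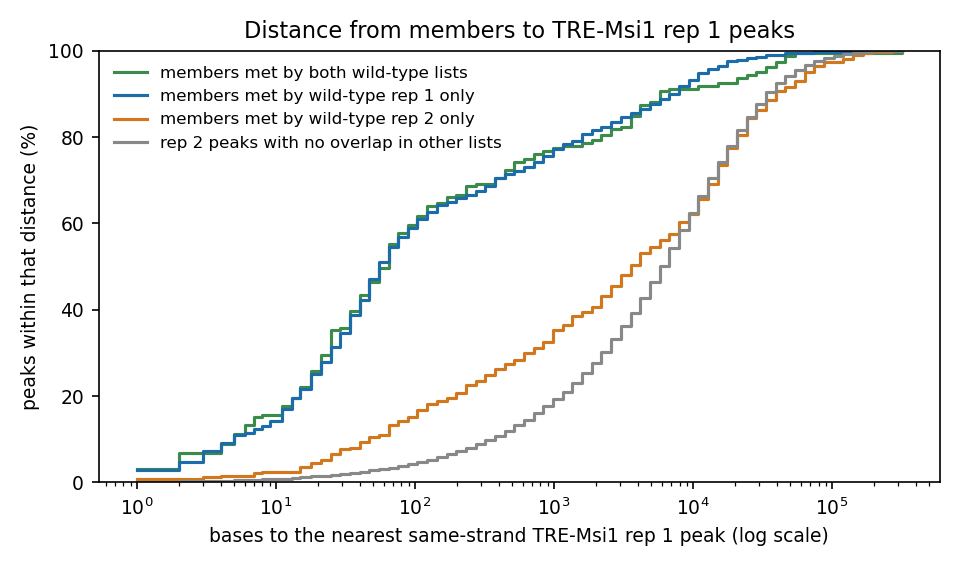
Cumulative share (vertical axis, percent) of members within a given number of bases of the nearest same-strand TRE-Msi1 replicate 1 peak (horizontal axis, log scale), by wild-type source, beside peaks of TRE-Msi1 replicate 2 that overlap no other list. Members met by wild-type replicate 1, alone or with replicate 2, reach 72.1% and 73.6% at 500 bp, members met by wild-type replicate 2 alone 28.2% and the others 12.9%.

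Distance and score moved together. Within 500 bp of a TRE-Msi1 replicate 1 peak lay 32.8% of the members scored 4 to 5, 49.3% of those scored 6 to 8, 60.1% at 9 to 14, 73.3% at 15 to 29 and 84.6% (77.1 to 89.9%) at 30 or more. Peaks that met no other list also rose, from 7.90% in the weakest band to 48.8% in the strongest (41.9 to 55.6%), and stayed below the members in each band. In the weakest band the source still separated the members, at 54.2% (44.8 to 63.3%) of 107 for wild-type replicate 1 alone and 13.5% (8.80 to 20.1%) of 141 for wild-type replicate 2 alone. The TRE-Msi1 replicate 1 peaks beside members were themselves stronger than usual for that list. Those nearest to the 741 close members had a median score of 2.3 and an upper quartile of 3.4, against 1.8 and 2.4 over all 189594.

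The nearby TRE-Msi1 replicate 1 peaks lay on one side of the members. Of the 628 members with such a peak centred within 200 bp of their own centre, 528 (84.1%, 81.0 to 86.7%) had it upstream, towards the 5′ end of the RNA, and 100 had it downstream. The median offset of its centre was -78.5 bp, where values below 0 are upstream. The rule bars overlap and so leaves no centre within about the width of a peak, which raises both the offset and the upstream share where a list as a whole lies to one side. These values are therefore a description. The upstream share was 86.0% of 435 for wild-type replicate 1 alone, 85.4% of 103 for both and 73.3% (63.4 to 81.4%) of 90 for wild-type replicate 2 alone. It was 59.7% (57.6 to 61.7%) of the 2140 such peaks that met no other list.

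The wild-type lists, which were not selected by the rule, showed the same side. Of 3279 wild-type replicate 1 peaks with a TRE-Msi1 replicate 1 peak centred within 200 bp, 77.4% (75.9 to 78.8%) had it upstream, at a median offset of -35.0 bp. In wild-type replicate 2 it was 71.0% (68.1 to 73.8%) of 973, at a median of -39.5 bp. The other lists lay close to one another: from wild-type replicate 1, the nearest centre stood at a median of 0.5 bp downstream in wild-type replicate 2 and 7.5 bp downstream in TRE-Msi1 replicate 2. With the same bar on overlap, the upstream share was 84.2% (82.0 to 86.2%) of 1185 wild-type replicate 1 peaks and 72.6% (68.4 to 76.5%) of 457 wild-type replicate 2 peaks. These lie near the 86.0% and 73.3% of the members met by each list alone. Both wild-type lists include the peaks that members met, 613 and 581 of them without a TRE-Msi1 replicate 1 overlap. The compared sets are therefore not separate, and wild-type peaks not met by members were not taken apart. The upstream position was thus seen in the lists as a whole. What sets it was not tested.

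**Figure D3:**
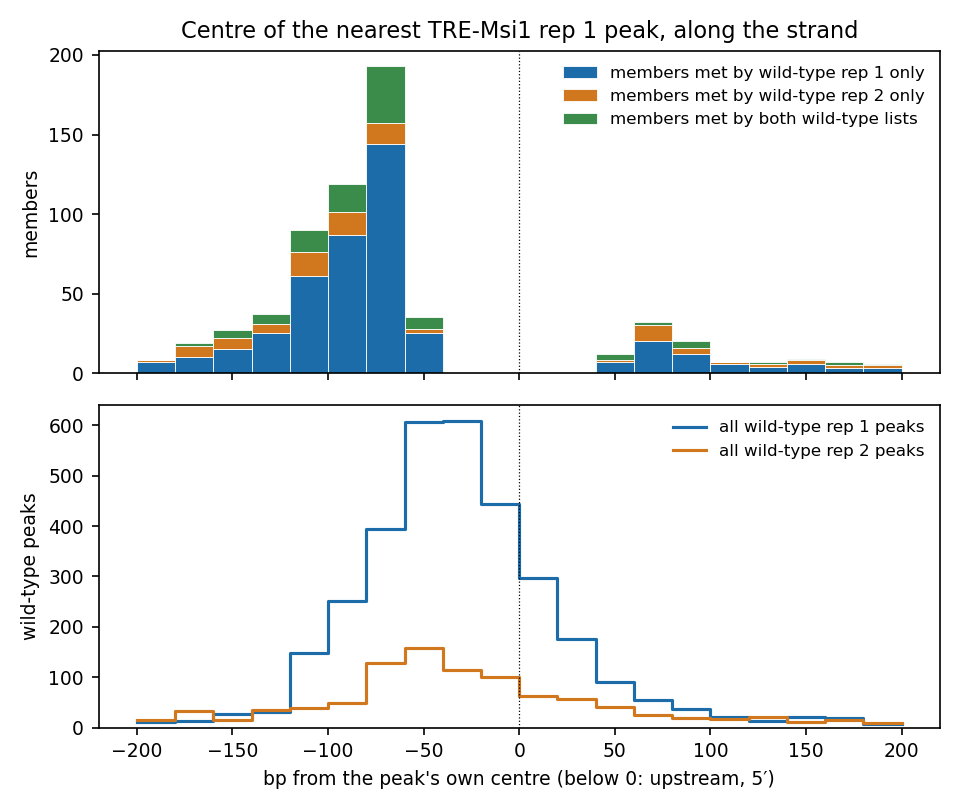
Position of the centre of the nearest TRE-Msi1 replicate 1 peak along the strand (horizontal axis, bp, below 0 is upstream) in bins of 20 bp, for members by wild-type source (top, stacked counts) and for all peaks of each wild-type list (bottom, counts). The members' empty centre follows from the rule that bars overlap; 528 of 628 members have the peak upstream, and both wild-type lists peak below 0.

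Members met by wild-type replicate 1 were themselves set slightly downstream of the wild-type peak. In 573 of 850 overlapping pairs of a member and a wild-type replicate 1 peak, the wild-type centre was upstream, and its median offset was -14.5 bp. The median shared stretch was 47 bases. With wild-type replicate 2 there were 648 pairs, of which 100 had exactly the same centre, and the median shared stretch was 63.5 bases. The median offset there was 0. The whole of TRE-Msi1 replicate 2 lay to the same side of wild-type replicate 1. Of its 2335 peaks with a wild-type replicate 1 peak centred within 200 bp, 56.4% had it upstream, at a median of -7.5 bp. For members it was 67.0% of 860, at -14.5 bp. The rule bars overlap with TRE-Msi1 replicate 1, which lay mostly upstream, and so bears on this offset. What sets it was not tested.

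For 238 members (18.1%, 16.1 to 20.3%), the wild-type peak they met itself overlapped a TRE-Msi1 replicate 1 peak. There the wild-type peak touched both induced peaks, which shared no base with each other. The number was 171 of 678 for wild-type replicate 1 alone, 20 of 478 for wild-type replicate 2 alone and 47 of 159 for both. Without them, 1077 members remain. Recovery in the second induced library alone thus holds for overlap of called intervals. For 741 members it does not extend to the surroundings, since they had a TRE-Msi1 replicate 1 peak within 500 bp. The other 574 had none within 500 bp, and 431 of all members had none within 2000 bp. Of members met by wild-type replicate 2 alone, 28.2% had one within 500 bp.

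Strand differed between sources as well. Plus-strand peaks were 57.4% of the members (54.7 to 60.1%), 61.7% (57.9 to 65.2%) for wild-type replicate 1 alone and 49.8% (45.3 to 54.3%) for wild-type replicate 2 alone. They were 50.9% of TRE-Msi1 replicate 2, 51.5% and 50.9% of the wild-type lists and 70.8% of TRE-Msi1 replicate 1. The 802 peaks with wild-type and TRE-Msi1 replicate 1 overlap are the remainder of the same 2117 and were 42.9% plus (39.5 to 46.3%). Of the peaks that met a wild-type peak, 68.7% (65.9 to 71.4%) of 1099 on the plus strand were members and 55.0% (51.9 to 58.0%) of 1018 on the minus strand. Of the 741 members within 500 bp of a TRE-Msi1 replicate 1 peak, 62.3% (58.8 to 65.8%) were on the plus strand, and of the other 574, 51.0% (47.0 to 55.1%). Peaks that met no other list differed in the same direction, at 56.8% (55.3 to 58.2%) of 4782 within 500 bp and 50.1% (49.6 to 50.7%) of 32369 beyond.

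The upstream position of TRE-Msi1 replicate 1 peaks differed by strand too. From wild-type replicate 1 the median offset was -48 bp on the plus and -26 bp on the minus strand, and 36.4% of plus-strand and 50.1% of minus-strand peaks overlapped TRE-Msi1 replicate 1. From wild-type replicate 2 the median offset was -48.5 and -32.5 bp, and 8.52% and 10.0% of the peaks overlapped TRE-Msi1 replicate 1. With TRE-Msi1 replicate 1 moved downstream by the median over both wild-type lists, 48 bp on the plus and 27 bp on the minus strand, the rule gave 1030 peaks, of which 971 were among the 1315. Their plus-strand share was 51.1% (48.0 to 54.1%), and 47.9% of plus-strand and 49.5% of minus-strand peaks with a wild-type overlap then met the rule. The shift was set after the offsets had been seen. It was taken per strand from these same lists, which by itself tends to raise overlap and bring the strands closer. These values are therefore a description, and what sets the strand difference was not tested.

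The 10 strongest members all met both wild-type lists and all had their nearest TRE-Msi1 replicate 1 peak upstream. Of these, 5 lay in a stretch of 1.28 kb on the plus strand of chromosome 17. The peak at 39984024 to 39984098 scored 292 in TRE-Msi1 replicate 2, met a wild-type replicate 2 peak scored 215 and row 24 of wild-type replicate 1, and had a TRE-Msi1 replicate 1 peak scored 18.7 at 21 bases. The peak at 39983516 to 39983590 scored 253, met a wild-type replicate 2 peak scored 546 and row 2 of wild-type replicate 1, and had a TRE-Msi1 replicate 1 peak scored 15.8 at 53 bases. These positions were strong in every list that has a score, and the induced lists placed them side by side.

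Peaks at 39984711 to 39984785 (score 253) and 39984726 to 39984800 (score 250) overlap each other and met the same wild-type replicate 2 peak, scored 470. Their nearest TRE-Msi1 replicate 1 peak, scored 18.9, lay at 17 and 32 bases. The peak at 39984240 to 39984314 scored 178 and met a wild-type replicate 2 peak scored 337, with a TRE-Msi1 replicate 1 peak scored 16.6 at 52 bases. In the whole stretch the 4 libraries listed 6, 5, 6 and 5 peaks (wild-type replicates 1 and 2, TRE-Msi1 replicates 1 and 2), so all of the last library's peaks there were members.

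Outside chromosome 17, the strongest member was on the plus strand of chromosome 5 at 147072847 to 147072921, with a score of 209, a wild-type replicate 2 score of 272 and a TRE-Msi1 replicate 1 peak at 85 bases. On the minus strand of chromosome 11, the interval 108873072 to 108873146 is listed with scores of 155 and 115 and so counts as 2 members. Its wild-type replicate 2 peak scored 368, and its TRE-Msi1 replicate 1 peak lay at 33 bases. The mitochondrial genome gave a member at 2246 to 2320 on the plus strand, scored 147, with a wild-type replicate 2 peak scored 247 and a TRE-Msi1 replicate 1 peak at 231 bases. The last of the 10 was at 5797483 to 5797557 of chromosome 19, minus strand, with a score of 128, a wild-type replicate 2 score of 28 and a TRE-Msi1 replicate 1 peak at 219 bases.

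Members with a single wild-type source were weaker. For wild-type replicate 1 alone the highest scores were 96 on the minus strand of the mitochondrial genome at 15242 to 15316, 95 on the plus strand of chromosome 2 at 34631720 to 34631794 and 93 on the plus strand of chromosome 5 at 33505070 to 33505144. Their nearest TRE-Msi1 replicate 1 peaks lay upstream at 27, 48 and 53 bases. For wild-type replicate 2 alone they were 74 on chromosome 1 at 82631686 to 82631760, 67 on chromosome 10 at 104477491 to 104477565 and 57 on chromosome 19 at 8798839 to 8798913, all on the plus strand. There the nearest TRE-Msi1 replicate 1 peaks lay at 4279 bases downstream, 7 upstream and 124 downstream.

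Most members had no other member within 10 kb on their strand, a count not given here for other kinds of peak. Joined when at most 10 kb lay between them on a strand, the 1315 members formed 1159 loci, of which 1027 held 1 member, 114 held 2, 14 held 3, and 2 each held 4 and 5. Counting any peak of their own library, 35.6% (33.0 to 38.2%) had another within 500 bp. That compares with 15.9% (15.5 to 16.3%) of peaks that met no other list and 47.6% (44.2 to 51.1%) of those with wild-type and TRE-Msi1 replicate 1 overlap.

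Besides the chromosome 17 stretch, 5 members lay on the plus strand of chromosome 19 at 8798839 to 8800546, with scores from 33 to 77. They made up 5 of the 6 TRE-Msi1 replicate 2 peaks there, beside 6 wild-type replicate 1, 7 wild-type replicate 2 and 6 TRE-Msi1 replicate 1 peaks. None of the 5 was more than 124 bases from a TRE-Msi1 replicate 1 peak. A locus on the plus strand of chromosome 1 at 162965586 to 162968595 held 4 members with scores from 16 to 37, in 3 of which the wild-type peak overlapped TRE-Msi1 replicate 1. Another at 23505108 to 23506207 of chromosome 10, minus strand, held 4 in 3 distinct intervals, scored 4 to 17. The next, on the plus strand of chromosome 9 at 120038006 to 120039709, held 3, scored 21 to 66, of which the farthest from TRE-Msi1 replicate 1 stood at 1456 bases. TRE-Msi1 replicate 1 listed at least 1 peak within each of these 5 loci.

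**Figure D4:**
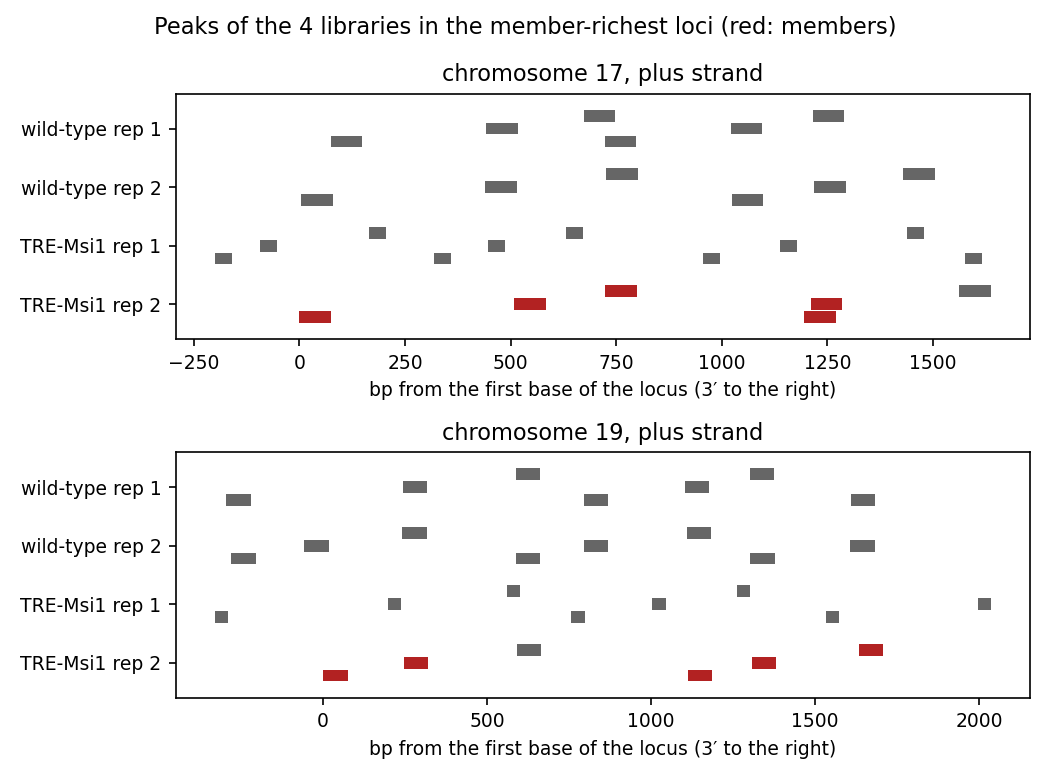
Peaks of the 4 libraries along the loci of chromosomes 17 and 19 that hold 5 members each (horizontal axis, bp from the first base of the locus; vertical steps within a library only separate neighbours). Members are red; on chromosome 17 the TRE-Msi1 replicate 1 peak nearest to each stands 17 to 53 bases to its left, and on chromosome 19 the nearest stands within 124 bases.

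A smaller group lay well away from TRE-Msi1 replicate 1. There were 431 members (32.8%) with no such peak within 2000 bp, of which 121 met wild-type replicate 1 alone, 278 wild-type replicate 2 alone and 32 both. Their median score was 7 and their plus-strand share 49.2% (44.5 to 53.9%). Beyond 50 kb there were 39 members (2.97%), 35 of them from wild-type replicate 2 alone, against 5.11% of peaks that met no other list. The direction differed by source. The share was 7.32% for wild-type replicate 2 alone, 0.442% for wild-type replicate 1 alone and 0.629% for both. Of the 39, 6 (15.4%, 7.25 to 29.7%) were on the plus strand. TRE-Msi1 replicate 1 itself was 70.8% plus, and the strand of other peaks beyond 50 kb is not given here. No trait of the members is therefore read from this share. The strongest of the 39 were all on the minus strand and from wild-type replicate 2 alone: chromosome 6 at 94776765 to 94776839 (score 33, 60.5 kb), chromosome 18 at 32601795 to 32601869 (score 21, 74.9 kb) and chromosome 11 at 47186559 to 47186633 (score 14, 56.9 kb). Their wild-type replicate 2 peaks scored 27, 3 and 7. The member farthest from TRE-Msi1 replicate 1, at 97875604 to 97875678 of chromosome 2 (minus strand), had the lowest possible score of 4 and met both wild-type lists.

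Along the genome the members were found on all 20 numbered and X chromosomes, where they made up 2.66% (chromosome 8) to 4.25% (chromosome 1) of its peaks, with a median of 3.09%. Chromosome 1 held the most, 122 members or 4.25% (3.57 to 5.05%), followed by chromosome 11 with 108 or 3.79% (3.15 to 4.56%). Both were picked from the 20 for their counts. The intervals allow neither for that choice nor for members that share a locus, so no enrichment is read from them. The mitochondrial genome gave 3 of its 15 peaks, and unplaced sequences of chromosomes 1 and 9 gave the other 3 members.

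At the edges of the rule, scores were near one another on both sides. Members that shared no more than 5 bases with a wild-type peak numbered 34, with a median score of 9.0, and 34 peaks just outside, 0 to 4 bases from a wild-type peak, had a median of 7.5. Towards TRE-Msi1 replicate 1, 83 members stood 0 to 4 bases away, with a median score of 12.0, and 83 peaks just outside shared 1 to 5 bases with it, with a median of 13.0. The strongest of these were the member on the plus strand of chromosome 5 at 33505021 to 33505095, scored 85, and the non-member on the plus strand of chromosome 9 at 123371281 to 123371355, scored 185.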

How the data were processed

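Per the submitters' processing notes, Bowtie, HOMER and mm9 were used. What each did, with which version and settings, was not given in the sources used here. One BED peak list per library was deposited by the authors, with a score per peak of unstated unit. Groups and replicate numbers came from the sample titles. Peaks overlapped when they shared 1 bp or more on a strand, and distance was the bases between 2 peaks. Offsets ran between centres within 200 bp. Shares have 95% Wilson intervals and medians 95% binomial order-statistic intervals. Coordinates are 1-based. The code for overlaps was tested on simulated data and differed from bedtools for 0 peaks in 12 comparisons. Named regions are the strongest 10 members, the strongest per source, the 5 largest loci and the members farthest from TRE-Msi1 replicate 1. The members, the rule and the lists were chosen with earlier results of these data known. Gene lists could not be applied without mm9 annotation. Tools were bedtools 2.31.1 and Python 3.11.15 with pandas 2.3.3, numpy 2.4.6, matplotlib 3.10.9 and scipy 1.17.1. Alternatives covered overlap, strand, width, score, duplicates, nearby peaks and left-out libraries. A shift of TRE-Msi1 replicate 1 and a removal of members by their wild-type peak were added after seeing the data.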

Additional observations from a re-analysis of the deposited data

How the results depend on the processing

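The number of members, 1315, stayed within 1.5 times under reciprocal overlap of 50%, either strand, resizing to 75 bp, single counting of identical intervals, the numbered and X chromosomes alone, the shift of TRE-Msi1 replicate 1 and removal of members whose wild-type peak overlapped that library. It was 574 and 431 when no TRE-Msi1 replicate 1 peak was allowed within 500 or 2000 bp. Leaving out one library gave 637 to 2117 members, the highest without TRE-Msi1 replicate 1, with 593 to 1691 loci, a median score of 9 to 10, a median distance of 54 to 1794 bases and 39.6 to 72.4% within 500 bp. Without TRE-Msi1 replicate 1, wild-type replicate 1 alone gave 1237 peaks and both lists 302. In the top 25% of TRE-Msi1 replicate 2 there were 667 members in 590 loci, 361 from wild-type replicate 1 alone and 191 from wild-type replicate 2 alone, with a median score of 15, a median distance of 65 bases and 69.1% within 500 bp. Reciprocal overlap of 50%, which admits partial overlaps as distance 0, gave a median score of 10, 31 bases and 68.0%. Resizing, which turns close neighbours into overlaps, gave 639 bases and 47.9%. The shift of TRE-Msi1 replicate 1, added after seeing the data, gave 101 members met by both wild-type lists, a median score of 8, 884.5 bases and 44.3%. The cause of the other differences was not tested. No paired analysis was made, as no result comes from a test between groups. Depth is unknown, and with 2 libraries per group the spread between mice is poorly known.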
